A study of Homo sapiens with 50 samples.

Results

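The data describe how far the transcriptional response of A549 cells to compound 16 at 24 h depended on serine in the medium. Each gene was given a difference of differences on the log2 scale: compound 16 minus DMSO without serine, minus compound 16 minus DMSO with serine. A negative value means that the compound effect was more negative without serine, and a positive value that it was more positive. The comparison used 12 of the 50 arrays of the series, in 4 groups of 3: 1 uM compound 16 without serine, DMSO without serine, 1 uM compound 16 with serine, and DMSO with serine. A549 is a human lung adenocarcinoma line. All 4 groups grew in RPMI, were moved to BME+NEAA medium made with or without serine 24 h before the addition, and were harvested 24 h after it, so DMSO cells lacking serine had also been without it for the whole period. The series is titled for activation of PKM, a pyruvate kinase, by small molecules and for a need for serine, and compound 16 is known here by its code alone. The arrays of a group are called the first, the second or the third in the order of the numbers in their titles, and values per array are listed in that order. The labels give triplicate harvests of 1 cell line and do not say that these were separate cultures, so p-values measure a spread between arrays that may be no more than technical. The title numbers run group by group, so a drift along them cannot be told apart from medium and compound.

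The array medians of these 12 arrays lay between 5.40 and 5.47, and ACTB probe sets gave 3′ minus 5′ values of 1.13 to 1.33 on the log2 scale, a measure of RNA degradation. All 10 markers chosen for A549 cells (simple keratins and genes held high by active NRF2, such as AKR1C1 and NQO1) had mean signals of 11.99 or more. The alveolar genes SFTPC, SFTPB and NKX2-1 had low signals of 4.91, 4.70 and 4.76. The 13 measured markers of other cell types had mean signals between 4.15 (PTPRC) and 7.27 (CD68), and their summed log2 signal per array was 62.68 to 63.74 under compound 16 and 64.42 to 65.63 in DMSO without serine, and 63.53 to 63.83 under compound 16 and 64.05 to 65.68 in DMSO with serine. The sums were thus lower under compound 16 in both media, and their part in the results below was not tested.

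Serine is made in cells from the glycolytic intermediate 3-phosphoglycerate by PHGDH, PSAT1 and PSPH, or is taken up from the medium, and it feeds glycine and one-carbon units for nucleotides. Pyruvate kinase acts downstream of that branch point, at the last step of glycolysis. Cells short of an amino acid activate the kinase GCN2 and the transcription factor ATF4, which raises genes of amino acid synthesis, uptake and tRNA charging, and cells that stop dividing lose the transcripts of mitosis genes.

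More genes passed the test for a compound effect without serine than with it. Without serine 542 genes rose (2.97% of 18239 genes tested) and 745 fell (4.08%), whereas with serine 136 rose (0.746%) and 113 fell (0.62%), at a limma Benjamini-Hochberg adjusted p under 0.05. The difference between these effects, which is the test of serine dependence itself, was called for 234 genes (1.28%), of which 70 were more positive without serine (0.384%) and 164 more negative (0.899%). With each array centred on its median, 678 of 1276 called genes were higher under compound 16 without serine and 105 of 285 with serine, and 100 of 203 genes called for serine dependence were more positive, so the split between directions changed with the scaling. Of the called genes, 3 positive and 6 negative ones differed by at least 2-fold. Among the 164 negative genes the median effect was -0.65 without serine and -0.07 with serine, and among the 70 positive genes it was 0.51 and -0.03. A fit of the 12 arrays alone called 67 genes, 13 more positive and 54 more negative. Of the 62 genes called among those named by rule, 39 lost the call in that fit, which kept it for 23. Among the genes described below, these were KIF20A, KIF11, AURKA, SGO2, POLA2, MYBL2, ACAT2, EBP, OAS1, ALDOC, NIBAN1, BEX2, MARS1, YARS1, WARS1, SLC1A4, NR4A1, LCN2, BCL2L15 and EIF5A2.

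**Figure D1:**
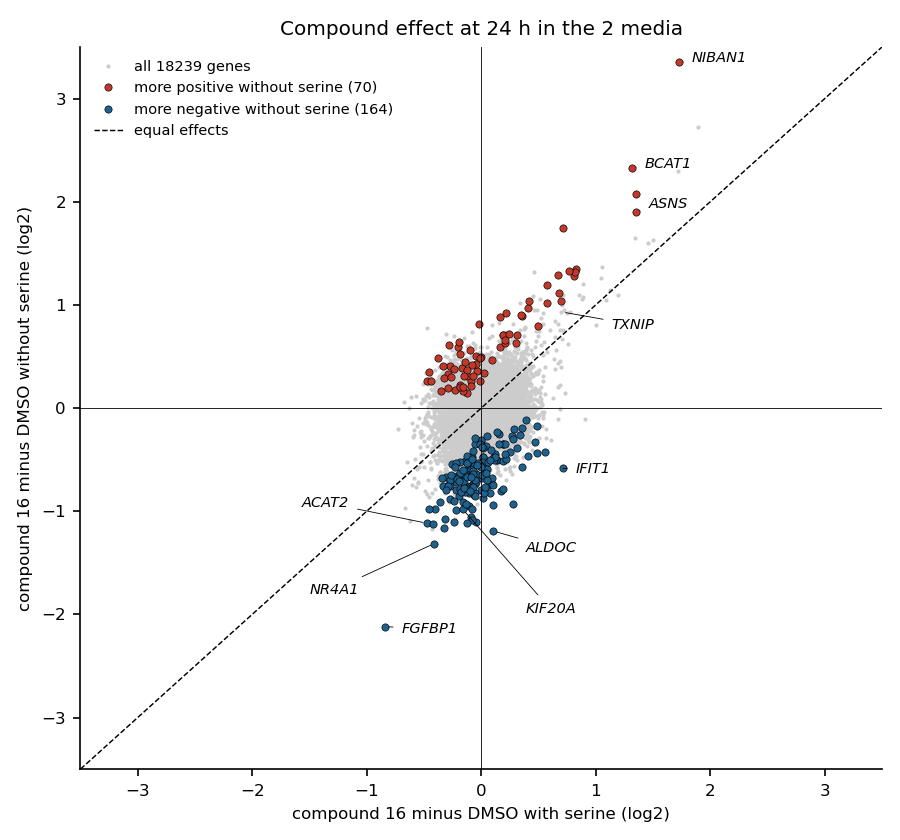
Compound 16 minus DMSO at 24 h without serine (vertical axis, log2) against the same effect with serine (horizontal axis, log2) for 18239 genes in grey. Red points are the 70 genes called more positive without serine, blue points the 164 called more negative, and the dashed line marks equal effects.

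The same contrast can be read as a difference between media under compound 16 minus that in DMSO. Under compound 16 the media differed at many genes, with 337 higher (1.85%) and 463 lower (2.54%) without serine. In DMSO they differed at few, with 16 higher (0.0877%) and 13 lower (0.0713%). Centred on medians these counts were 509 and 365 under compound 16 and 8 and 20 in DMSO, and after quantile normalization 9 and 14 in DMSO. The DMSO count of 29 moved to 9 when the third DMSO array with serine was left out, and to 11, 17 and 15 when the first, the second or the third DMSO array without serine was. An unadjusted p under 0.05 for the media in DMSO was reached by 1427 of 18239 genes. Among the 164 negative genes the difference between media was larger in size under compound 16 than in DMSO for 147, and among the 70 positive genes for 50. The remaining 17 and 20 genes had the larger difference in DMSO. These counts compare estimates without their errors, in genes picked by the same contrast. The share over all genes was not counted, and which of the 2 differences was larger was not tested. Genes on both sides of this split are described below.

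Of the 27 lists examined, that of mitosis held the most called genes. Of 35 measured members of the list (kinesins, centromere proteins, mitotic kinases and cyclins), 29 (82.9%) had a called, more negative compound effect without serine, against 0.899% of all genes, and none a more positive one, and the list's median difference was -0.57, against -0.0017 over all genes tested. Compound 16 lowered all 35 without serine and 1 with serine, CDC20, named after its value was seen (-0.33, adjusted p = 0.000997, with 1 of its 3 probe sets of opposite sign for serine dependence). The effect with serine was negative for 27 of the 35, with a median of -0.11. There 11 members were past an unadjusted limma p of 0.05, all lower, against 2141 of all 18239 genes in either direction. The media differed under compound 16 at 33 of the 35, all lower without serine, and at 0 in DMSO, where 1 member was past an unadjusted p of 0.05. In bulk RNA, fewer cells in mitosis and less of these transcripts per cell cannot be told apart.

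KIF20A, a kinesin of the late spindle needed for cytokinesis, had signals of 8.84, 8.77 and 8.83 under compound 16 without serine, and 9.72, 9.86 and 9.79 in DMSO without serine. With serine it had 9.73, 9.68 and 9.71 under compound 16 and 9.91, 9.80 and 9.89 in DMSO. The 3 arrays of compound 16 without serine were below all 9 others, which lay between 9.68 and 9.91. The effect of compound 16 on KIF20A was -0.98 ± 0.066 (SE) without serine and -0.16 ± 0.066 with serine, a difference of -0.82 ± 0.093 (limma adjusted p = 2.63e-06), that is 1.76-fold. KIF11, the motor that separates the spindle poles, had 10.18, 10.15 and 10.14 under compound 16 and 10.91, 10.87 and 10.97 in DMSO without serine, and 10.79, 10.73 and 10.83 under compound 16 and 10.91, 10.85 and 10.95 in DMSO with serine. Again the 3 arrays of compound 16 without serine lay below all 9 others. Those of compound 16 with serine lay between them and the DMSO arrays of both media. The difference was -0.64 ± 0.080 (adjusted p = 5.87e-06). Compound 16 without serine was also lowest for AURKA, the kinase of spindle pole maturation (-0.66 ± 0.086, adjusted p = 1.02e-05), and for SGO2, a protector of centromeric cohesion, whose difference of -0.99 ± 0.13 was the largest of the list with the probe sets used (adjusted p = 1.02e-05). With the probe set of highest variance in its place, KIF11 was -0.39 (adjusted p = 0.243) and SGO2 -0.51 (adjusted p = 0.468), and both calls were lost. For 33 of the 35 members those 3 arrays lay below all 9 others, as they did for 4.17% of all genes. No member had them above the 9 others, as 3.59% of all genes did. The count of 29 was 26 to 31 when 1 array was left out.

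The promoters of KIF20A and KIF11 are shown because late cell cycle genes often carry a CHR (cell cycle genes homology region) close to the start, with CCAAT boxes upstream. Sequences are the 250 bases before the RefSeq start in GRCh38.p14, printed 5′ to 3′ on the gene's strand, with capitals marking CHR letters (TTTGAA or its variant TTTAAA, on either strand) and CCAAT boxes (CCAAT on either strand). KIF20A lies on the plus strand at chr5:138178862-138179111 and KIF11 on the plus strand at chr10:92592880-92593129.
KIF20A: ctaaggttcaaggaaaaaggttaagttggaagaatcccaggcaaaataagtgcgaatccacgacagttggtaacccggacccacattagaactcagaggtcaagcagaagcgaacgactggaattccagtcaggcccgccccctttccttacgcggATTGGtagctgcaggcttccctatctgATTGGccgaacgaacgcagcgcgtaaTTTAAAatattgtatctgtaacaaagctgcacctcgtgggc
KIF11: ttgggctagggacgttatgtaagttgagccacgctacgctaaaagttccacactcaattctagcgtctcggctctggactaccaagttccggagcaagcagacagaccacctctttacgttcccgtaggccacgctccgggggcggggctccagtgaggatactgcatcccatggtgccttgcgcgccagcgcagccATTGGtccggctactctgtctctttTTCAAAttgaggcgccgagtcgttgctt
The KIF20A window held the CHR variant 41 bases before the start and CCAAT boxes on the other strand at 94 and 67 bases. The KIF11 window held a CHR at 28 bases and a CCAAT box at 53 bases, both on the other strand. Of 29 mitosis genes with a promoter in the RefSeq table, 16 held TTTGAA (55.2%), 12 TTTAAA (41.4%) and 22 CCAAT (75.9%), against 10.8%, 8.79% and 34.6% of 14492 promoters of tested genes. Among 141 promoters of genes called more negative without serine, 45 held TTTGAA (31.9%) and 85 CCAAT (60.3%). The 141 include called mitosis genes, so these shares are no separate observation. Of 59 promoters of genes called more positive, 4 held TTTGAA (6.78%) and 25 CCAAT (42.4%). TTTAAA reads the same on both strands, a CCAAT box can share an edge base with a CHR match, and a match describes the sequence alone.

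Of 35 measured DNA replication genes 3 (8.57%) were called more negative without serine, against 0.899% of all genes, and none more positive, and the median difference was -0.10. The 3 were RRM2, the small subunit of ribonucleotide reductase (-0.44 ± 0.083, adjusted p = 0.00156), TK1, thymidine kinase (-0.41 ± 0.10, adjusted p = 0.0341), and POLA2, a subunit of the primase polymerase (-0.64 ± 0.17, adjusted p = 0.0476). With 1 array left out in turn, the POLA2 call was lost in 10 of 12 fits and held only without the second array of compound 16 or the third of DMSO, both without serine. The TK1 call was lost in 8 and held only without the second or the third array of compound 16, in either medium. Compound 16 lowered 16 of the 35 without serine and 5 with serine. Of 24 regulators of the G1 to S transition, 3 (12.5%) were called more negative without serine: MYBL2 (-0.58 ± 0.13, adjusted p = 0.0151), FOXM1 (-0.46 ± 0.11, adjusted p = 0.0216) and CCNA2 (-0.48 ± 0.12, adjusted p = 0.0407), which drive or accompany the step from S phase into mitosis. The MYBL2 call was lost without the second array of compound 16 in either medium or the first of DMSO without serine (adjusted p up to 0.0638). The FOXM1 call was lost without the first or second array of compound 16 or the third of DMSO without serine, or the third of compound 16 or the second of DMSO with serine (up to 0.0867). The CCNA2 call was lost in 10 of 12 such fits and held only without the third array of compound 16 without serine or the third of DMSO with serine (up to 0.134). Centred on medians, TK1, FOXM1, CCNA2 and POLA2 had adjusted p from 0.0568 to 0.105. With the probe set of highest variance POLA2 was -0.22 and not called, whereas CCNA2 was -0.74 and FOXM1 -0.997 and both were called.

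Genes of cholesterol synthesis fell under compound 16 in both media, several of them further without serine. Compound 16 lowered 17 of the 18 measured enzymes without serine and 9 with serine. The difference was called and negative for 7 (38.9%, against 0.899% of all genes) and positive for none, with a median of -0.41. Under compound 16 the media differed at 10, all lower without serine, and in DMSO at 0, with 0 at an unadjusted p under 0.05.

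ACAT2, the thiolase that makes acetoacetyl-CoA at the start of the pathway, had 9.96, 9.85 and 9.99 under compound 16 and 11.02, 11.03 and 11.11 in DMSO without serine. With serine it had 10.72, 10.52 and 10.54 under compound 16 and 10.98, 11.13 and 11.09 in DMSO. The signals thus formed 3 steps, lowest under compound 16 without serine, intermediate under compound 16 with serine and highest in both DMSO groups, which overlapped. The effect was -1.12 ± 0.059 without serine and -0.47 ± 0.059 with serine, a difference of -0.64 ± 0.084 (adjusted p = 1.02e-05). EBP, the sterol isomerase, showed the same order, with group means of 9.93 ± 0.074 (SD, n = 3) under compound 16 and 10.84 ± 0.023 in DMSO without serine, and 10.45 ± 0.036 under compound 16 and 10.81 ± 0.096 in DMSO with serine. Its difference was -0.54 ± 0.085 (adjusted p = 0.00011). SQLE, squalene epoxidase, had effects of -0.98 without serine and -0.46 with serine (difference -0.53 ± 0.085, adjusted p = 0.000174). DHCR7, the last enzyme of the pathway, had effects of -1.16 without serine and -0.33 with serine (difference -0.83 ± 0.14, adjusted p = 0.000295), and the effect with serine was not called (adjusted p = 0.0926). In the list of sterol and fatty acid genes, 3 of 23 (13%) were called more negative and none more positive: the desaturases SCD (-0.35 ± 0.064, adjusted p = 0.000937), FADS1 (-0.51 ± 0.097, adjusted p = 0.00174) and FADS2 (-0.70 ± 0.18, adjusted p = 0.0368). The value of SCD came from the smallest of its 4 probe sets, which ran from -0.996 to -0.35, and their mean gave -0.66. SQLE was -0.81 with the probe set of highest variance. The FADS2 call was lost in 9 of 12 leave-one-out fits (adjusted p up to 0.142) and held only without the third array of compound 16 in either medium or the first of DMSO with serine. The cholesterol count of 7 was 6 to 8 when 1 array was left out and 2 in a fit of the 12 arrays alone.

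The EBP promoter is shown for its CCAAT boxes, which 12 of 16 cholesterol-list promoters held (75%), against the 34.6% of all promoters given above. It lies on the plus strand at chrX:48521558-48521807 (GRCh38.p14, RefSeq), with capitals on CCAAT boxes and on an ISRE match, whose letters are given with IFIT1.
EBP: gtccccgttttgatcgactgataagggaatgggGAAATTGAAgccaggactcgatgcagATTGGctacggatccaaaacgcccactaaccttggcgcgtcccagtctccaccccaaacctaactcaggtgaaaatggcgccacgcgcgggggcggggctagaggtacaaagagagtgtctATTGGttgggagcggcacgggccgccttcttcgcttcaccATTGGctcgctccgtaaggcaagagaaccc
The CCAAT boxes were on the other strand at 191, 70 and 30 bases before the start. None of the 16 windows held the SRE letters TCACNCCAC on either strand, which 0.883% of all promoters held. With so rare a match, its absence does not show that these genes lack a sterol regulatory element.

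Of 36 measured interferon-stimulated genes, 4 (11.1%) were called more negative without serine, against 0.899% of all genes, and none more positive (IFIT1, OAS1, IFITM1 and IRF9), and the median difference over the list was -0.12. Under compound 16 the media differed at 8 members, all lower without serine, and in DMSO at 0, with 3 at an unadjusted p under 0.05.

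IFIT1, which binds viral RNA that lacks a mature cap, had 6.30, 6.31 and 6.02 under compound 16 and 6.57, 7.15 and 6.67 in DMSO without serine. With serine it had 7.35, 7.61 and 7.65 under compound 16 and 6.87, 6.49 and 7.11 in DMSO. Compound 16 lowered IFIT1 without serine (-0.59 ± 0.18, adjusted p = 0.0352) and raised it with serine (0.71 ± 0.18, adjusted p = 0.0275), so the compound arrays of the 2 media were the lowest and the highest of the 12 while the DMSO groups overlapped. The difference was -1.30 ± 0.25 (adjusted p = 0.00211), or 2.46-fold. OAS1, the oligoadenylate synthetase that activates RNase L, had 7.55, 7.37 and 7.38 under compound 16 and 8.57, 8.51 and 8.54 in DMSO without serine, against 8.45, 8.53 and 8.32 under compound 16 and 8.88, 8.61 and 8.52 in DMSO with serine. The 3 arrays of compound 16 without serine lay below all 9 others, and the difference was -0.87 ± 0.12 (adjusted p = 1.76e-05). IFITM1, a membrane protein that blocks viral entry, differed by -0.98 ± 0.21 (adjusted p = 0.00637). IRF9, the DNA-binding subunit of the interferon transcription complex, differed by -0.49 ± 0.13 (adjusted p = 0.044), and its call was lost in 9 of 12 leave-one-out fits (adjusted p up to 0.191) and held only without the first DMSO array of either medium or the first array of compound 16 with serine. It was also lost after quantile normalization or centring and with either other choice of probe set.

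The promoters of IFIT1 and OAS1 are shown for interferon elements. IFIT1 lies on the plus strand at chr10:89392373-89392622 and OAS1 on the plus strand at chr12:112906712-112906961 (GRCh38.p14, RefSeq), and capitals mark the interferon-stimulated response element (ISRE, searched as GAAANNGAA on both strands), CCAAT boxes and TTTAAA.
IFIT1: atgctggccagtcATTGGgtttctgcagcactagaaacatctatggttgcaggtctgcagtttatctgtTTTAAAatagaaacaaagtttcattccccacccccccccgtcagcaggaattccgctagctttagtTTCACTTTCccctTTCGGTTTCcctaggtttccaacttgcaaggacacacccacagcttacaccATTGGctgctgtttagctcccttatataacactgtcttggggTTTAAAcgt
OAS1: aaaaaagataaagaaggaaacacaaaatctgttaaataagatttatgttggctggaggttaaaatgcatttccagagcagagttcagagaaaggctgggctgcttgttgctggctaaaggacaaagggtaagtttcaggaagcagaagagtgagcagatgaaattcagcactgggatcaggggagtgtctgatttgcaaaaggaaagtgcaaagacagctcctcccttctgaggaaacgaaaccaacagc
Both ISRE matches in IFIT1 were on the other strand, one at 115 bases before the start and the other closer to it. The element was found in 19 of 29 interferon-list promoters (65.5%) and in 5.95% of all 14492. It was found in 19 of 141 promoters of genes called more negative without serine (13.5%) and in 8 of 59 of those called more positive (13.6%). The OAS1 window held no match to the letters searched. The search fixes the spacing NN between GAAA and GAA, so it misses the run gaaacgaaac near the end of that window. The lack of a match thus does not show that OAS1 lacks an interferon element.

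**Figure D2:**
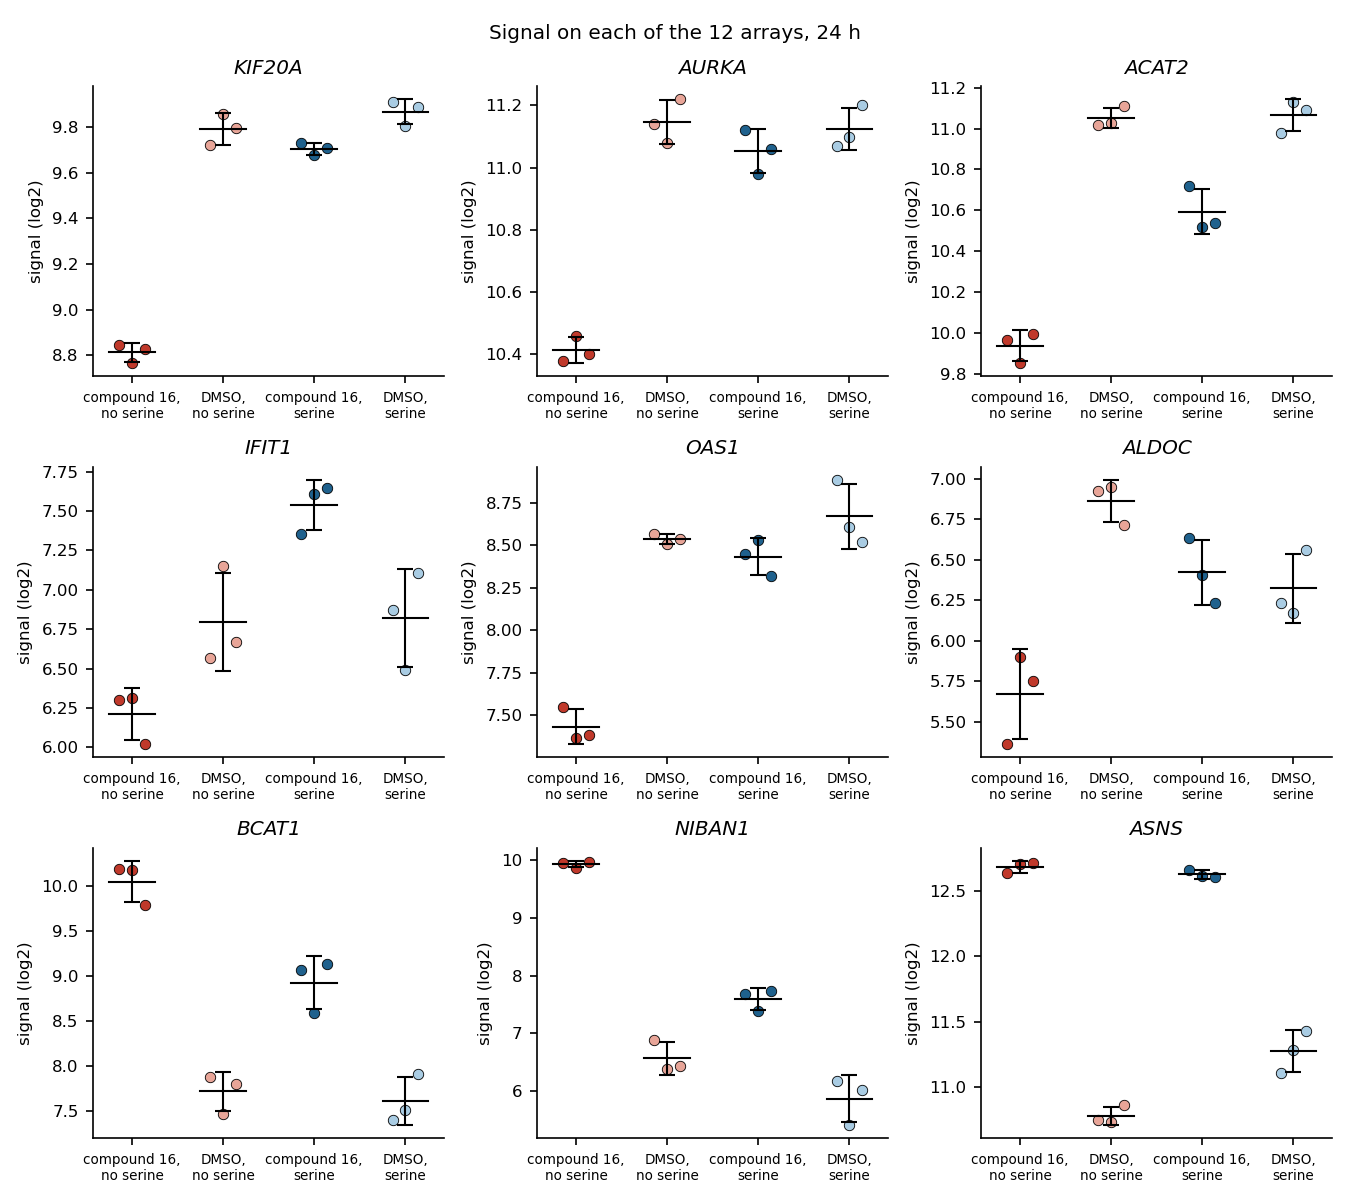
Log2 signal of 9 genes on each of the 12 arrays at 24 h, with bars for the mean ± SD (n = 3). In KIF20A, AURKA, ACAT2, IFIT1, OAS1 and ALDOC the 3 arrays of compound 16 without serine lie below all others, in BCAT1 and NIBAN1 above all others, and in ASNS the 2 compound groups overlap while DMSO without serine lies lowest.

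ALDOC was the 1 member of the hypoxia and glycolysis list called for serine dependence. It encodes the aldolase isozyme of brain, which is also a target of hypoxia-inducible factors. Signals were 5.36, 5.90 and 5.75 under compound 16 and 6.92, 6.95 and 6.71 in DMSO without serine, and 6.63, 6.40 and 6.23 under compound 16 and 6.24, 6.17 and 6.56 in DMSO with serine. The lowest and highest groups were thus both without serine, and the groups with serine overlapped. Compound 16 changed ALDOC by -1.19 ± 0.16 without serine (adjusted p = 5.09e-07) and by 0.10 ± 0.16 with serine (adjusted p = 0.869), a difference of -1.29 ± 0.22 (adjusted p = 0.000437). All 5 ALDOC probe sets had a negative difference, but their mean gave -0.49 and was not called (adjusted p = 0.0719). None of the other 33 members was called (1 of 34, or 2.94%), and the list's median was -0.03. PKM itself lay at 9.64 ± 0.097 under compound 16 and 9.99 ± 0.055 in DMSO without serine, and at 9.86 ± 0.084 under compound 16 and 9.96 ± 0.028 in DMSO with serine (SD, n = 3 each). Compound 16 lowered it without serine (-0.35 ± 0.065, adjusted p = 0.000227), but the difference between media was not called (-0.25 ± 0.092, adjusted p = 0.227), and 1 of 5 PKM probe sets had the opposite sign.

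The ALDOC promoter is shown with capitals on hypoxia response elements (HRE, searched as NACGTG on both strands) and on a sterol regulatory element (SRE, TCACNCCAC on both strands). It lies on the minus strand at chr17:28576896-28577145 (GRCh38.p14, RefSeq).
ALDOC: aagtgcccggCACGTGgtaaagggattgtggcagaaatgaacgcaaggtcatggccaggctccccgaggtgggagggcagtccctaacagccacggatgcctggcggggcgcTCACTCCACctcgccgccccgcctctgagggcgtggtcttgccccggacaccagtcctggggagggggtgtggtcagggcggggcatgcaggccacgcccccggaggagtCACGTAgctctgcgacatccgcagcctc
The HRE letters occurred at 240 bases, where the palindrome CACGTG was read on both strands, and at 28 bases on the other strand, and the SRE at 138 bases. HRE letters were in 20.9% of all promoters and in 20.6% of those of genes called more negative, and the SRE was in 0.883% and 0.709%. Of 29 mitosis promoters 12 held HRE letters (41.4%), as did 18 of 59 of genes called more positive (30.5%). For ALDOC the array values alone bear on the result.

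The largest positive differences between the compound effects of the 2 media were those of NIBAN1, BEX2 and BCAT1. They were the 3 genes called more positive without serine whose difference was at least 2-fold. NIBAN1, a stress gene downstream of ATF4, had 9.95, 9.86 and 9.95 under compound 16 and 6.89, 6.38 and 6.44 in DMSO without serine, and 7.68, 7.39 and 7.73 under compound 16 and 6.18, 5.42 and 6.02 in DMSO with serine. Compound 16 raised it in both media, by 3.35 ± 0.16 without serine and 1.73 ± 0.16 with serine, a difference of 1.62 ± 0.23 (adjusted p = 2.92e-05) or 3.08-fold. BCAT1, the cytosolic aminotransferase of leucine, isoleucine and valine, had 10.19, 10.18 and 9.79 under compound 16 and 7.89, 7.47 and 7.81 in DMSO without serine, and 9.07, 8.59 and 9.13 under compound 16 and 7.41, 7.52 and 7.92 in DMSO with serine. The compound arrays lay above the DMSO arrays in each medium, and those without serine above those with it, whereas the DMSO groups overlapped. Its effects were 2.33 ± 0.17 without serine and 1.32 ± 0.17 with serine, and the difference was 1.01 ± 0.23 (adjusted p = 0.0151). That call was lost when the first array of compound 16 or the second of DMSO without serine, or the second of compound 16 or the third of DMSO with serine, was left out, with differences of 0.84 to 1.15 and adjusted p of 0.00742 to 0.0837 over the 12 such fits. With the mean of its 5 probe sets the difference was 0.65. BEX2, a small adaptor protein of the BEX family, had effects of 1.74 ± 0.12 without serine and 0.71 ± 0.12 with serine (difference 1.03 ± 0.17, adjusted p = 0.000319). BCAT1 was the 1 called gene among 20 of branched-chain amino acid metabolism, whose median difference was -0.02.

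The promoters of BCAT1, NIBAN1 and CBS (described below) are shown for the C/EBP-ATF element, a site of ATF4 dimers. BCAT1 lies on the minus strand at chr12:24949102-24949351, NIBAN1 on the minus strand at chr1:184974509-184974758 and CBS on the minus strand at chr21:43076378-43076627 (GRCh38.p14, RefSeq), and capitals mark that element (searched as TGATGNAA on both strands).
BCAT1: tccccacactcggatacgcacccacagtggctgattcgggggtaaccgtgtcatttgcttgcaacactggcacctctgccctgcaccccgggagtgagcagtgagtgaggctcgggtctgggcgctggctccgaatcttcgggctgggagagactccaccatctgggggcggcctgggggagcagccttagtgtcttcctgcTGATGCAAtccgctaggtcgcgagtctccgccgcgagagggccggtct
NIBAN1: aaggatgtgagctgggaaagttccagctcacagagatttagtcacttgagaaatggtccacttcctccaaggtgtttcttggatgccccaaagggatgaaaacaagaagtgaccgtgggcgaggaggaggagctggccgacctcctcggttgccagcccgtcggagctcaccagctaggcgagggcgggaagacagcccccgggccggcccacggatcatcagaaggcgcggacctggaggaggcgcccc
CBS: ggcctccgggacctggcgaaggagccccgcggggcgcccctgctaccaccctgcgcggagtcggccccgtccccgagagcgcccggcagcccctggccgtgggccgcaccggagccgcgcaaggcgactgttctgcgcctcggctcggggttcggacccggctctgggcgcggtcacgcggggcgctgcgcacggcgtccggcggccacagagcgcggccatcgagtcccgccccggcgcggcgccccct
In BCAT1 the element lay 48 bases before the start. It was found in 2.23% of all promoters, in 4 of 24 of the amino acid response (16.7%), in 2 of 16 of the tRNA synthetases (12.5%) and in 3 of 59 of the genes called more positive without serine (5.08%), close to the 6 of 141 of those called more negative (4.26%). The windows of NIBAN1 and CBS held none of the motifs searched.

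Genes of the amino acid response rose under compound 16 in both media, and several of those called for serine dependence were lower without serine in DMSO. Compound 16 raised 24 of the 29 measured members without serine and 19 with serine. The difference was called and positive for 5 (NIBAN1, CBS, ASNS, ATF5 and PSAT1), which is 17.2% against 0.384% of all genes, and negative for none, and the list's median difference was 0.20. In DMSO, 5 of the 29 were lower without serine (NUPR1, CBS, ASNS, PSAT1 and ATF4) and none higher, and under compound 16 4 were higher (NIBAN1, ATF5, CEBPG and TRIB3) and 1, CTH, lower. ATF5, ATF4, NUPR1, CEBPG and CTH were named after their values were seen, and 2 of the 4 ATF5 probe sets had the opposite sign. The DMSO count of 5 was 3 when the third DMSO array with serine or any DMSO array without serine was left out, and 0 in a fit of the 12 arrays alone.

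ASNS, asparagine synthetase, had 12.63, 12.70 and 12.71 under compound 16 and 10.75, 10.73 and 10.86 in DMSO without serine, and 12.66, 12.61 and 12.60 under compound 16 and 11.11, 11.28 and 11.43 in DMSO with serine. The compound groups overlapped, while the DMSO arrays without serine lay below the other 9. The difference of 0.55 ± 0.092 (adjusted p = 0.000319) was accordingly made up of a gap between media of 0.06 ± 0.065 under compound 16 (adjusted p = 0.764) and -0.49 ± 0.065 in DMSO (adjusted p = 3.41e-05). CBS, which joins serine to homocysteine, had 10.69, 10.53 and 10.63 under compound 16 and 8.41, 8.67 and 8.55 in DMSO without serine, and 10.72, 10.63 and 10.62 under compound 16 and 9.17, 9.23 and 9.53 in DMSO with serine. Its media gap was -0.04 ± 0.078 under compound 16 and -0.77 ± 0.078 in DMSO, and its difference of effects 0.73 ± 0.11 (adjusted p = 8.34e-05), or 1.19 with the probe set of highest variance. In CBS too the DMSO arrays without serine lay below the other 9, as they did for 7 of the 29 members and for 0.976% of all genes.

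Transfer RNA synthetases, which charge tRNAs with amino acids, were called more often than all genes tested (0.384% in this direction). Of 19 measured, 7 (36.8%) were called more positive without serine and none more negative, with a median difference of 0.29, and compound 16 raised 12 without serine and 11 with serine. MARS1, for methionine, had group means of 11.08 ± 0.078 (SD, n = 3) under compound 16 and 9.79 ± 0.048 in DMSO without serine, and 10.88 ± 0.050 under compound 16 and 10.21 ± 0.12 in DMSO with serine. Its DMSO cells were lower without serine (-0.41 ± 0.066, adjusted p = 0.000715) and its difference of effects was 0.62 ± 0.093 (adjusted p = 7.71e-05). YARS1, for tyrosine (0.62 ± 0.11, adjusted p = 0.000811), and CARS1, for cysteine (0.48 ± 0.092, adjusted p = 0.002), followed the same order, with DMSO gaps of -0.44 and -0.39. WARS1, for tryptophan, differed in its larger gap under compound 16 (0.41 ± 0.057, adjusted p = 4.39e-06) than in DMSO (-0.15 ± 0.057, adjusted p = 0.455), with a difference of effects of 0.55 ± 0.080 (adjusted p = 4.4e-05). With the probe set of highest variance MARS1 was 0.36 (adjusted p = 0.713), WARS1 0.27 (adjusted p = 0.627) and CARS1 0.51 (adjusted p = 0.122), and the 3 calls were lost. Of 22 amino acid carriers 2 (9.09%) were called more positive without serine and none more negative. SLC7A1, which imports arginine and lysine, differed by 0.45 ± 0.088 (adjusted p = 0.00248), and SLC1A4, a carrier of alanine and serine, by 0.56 ± 0.13 (adjusted p = 0.0154). For both, 1 probe set had the opposite sign, and the mean of all probe sets gave no call. The SLC1A4 call was also lost without the first DMSO array without serine or the second with serine (adjusted p up to 0.0631).

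**Figure D3:**
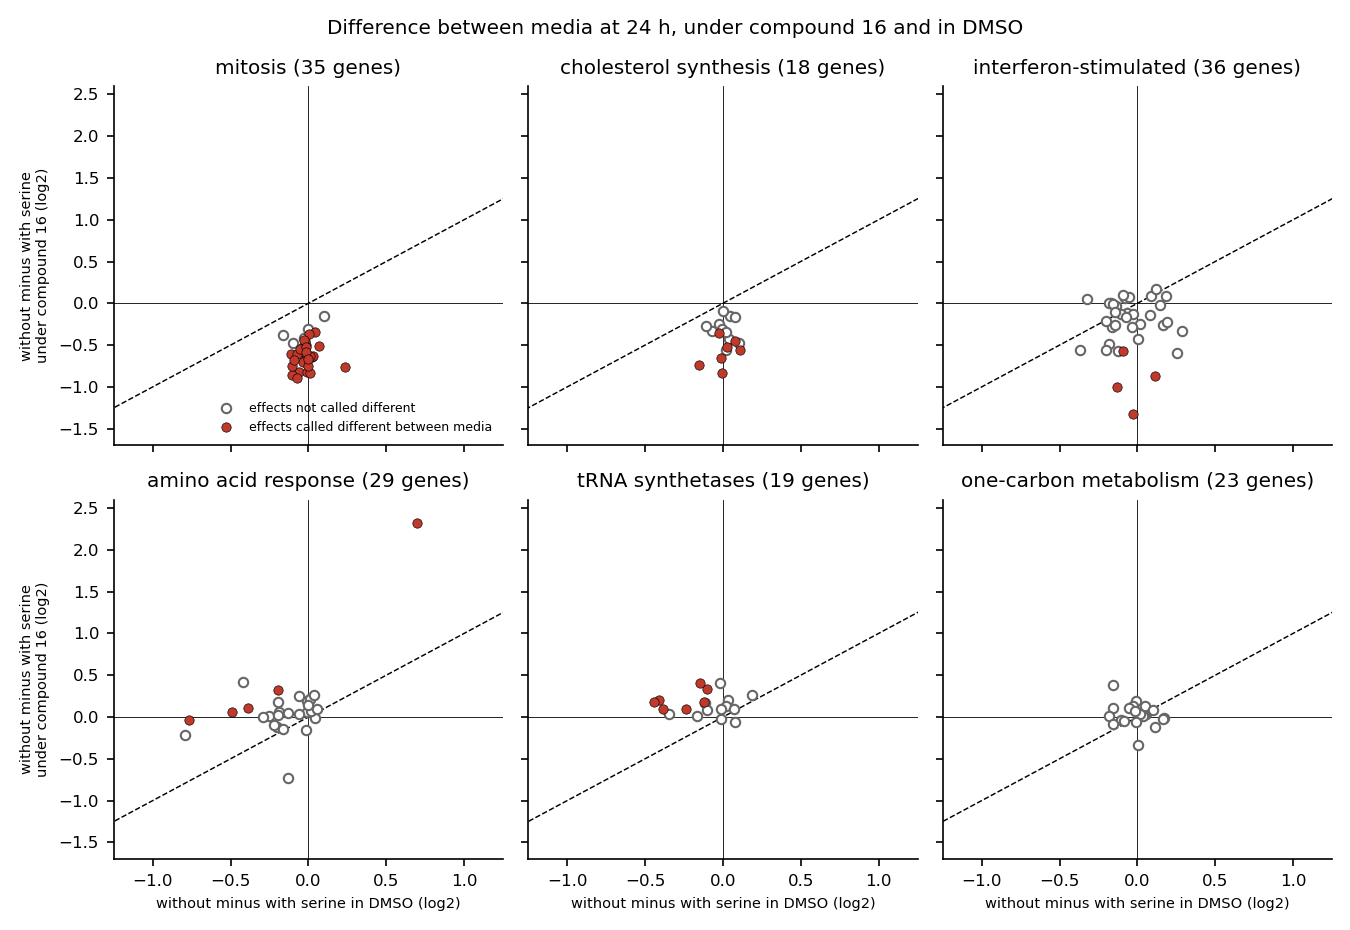
Medium without serine minus medium with serine at 24 h under compound 16 (vertical axis, log2) against the same in DMSO (horizontal axis, log2) for the members of 6 lists, with filled points for genes called for serine dependence. Mitosis and cholesterol genes lie below 0 on the vertical axis and near 0 on the horizontal one, several amino acid response and tRNA synthetase genes lie left of 0, and points on the dashed line have equal compound effects in both media.

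The 3 enzymes of serine synthesis rose in both media, and the difference between media was called for PSAT1. Differences between the enzymes were not tested. PHGDH, the first enzyme, had group means of 11.14 ± 0.035 (SD, n = 3) under compound 16 and 9.54 ± 0.14 in DMSO without serine, and 11.00 ± 0.057 under compound 16 and 9.54 ± 0.17 in DMSO with serine. Its effects of 1.60 ± 0.081 without serine and 1.45 ± 0.081 with serine differed by 0.15 ± 0.11 (adjusted p = 0.705). PSAT1, the aminotransferase, had 12.49, 12.43 and 12.41 under compound 16 and 11.12, 11.15 and 11.11 in DMSO without serine, and 12.35, 12.31 and 12.33 under compound 16 and 11.44, 11.41 and 11.69 in DMSO with serine. Its difference of 0.50 ± 0.11 (adjusted p = 0.0138) was 0.41 and not called without the third DMSO array with serine (adjusted p = 0.0765), and with the probe set of highest variance it was 0.47 and not called (adjusted p = 0.202). PSPH, the phosphatase, rose by 0.51 ± 0.061 without serine and 0.36 ± 0.061 with serine, a difference of 0.14 ± 0.086 (adjusted p = 0.582). The 3 PSPH probe sets ran from 0.017 to 0.644, and the highest of them was not called either (adjusted p = 0.175). In one-carbon metabolism, 0 of 23 genes were called by limma for the difference, 3 were past an unadjusted p of 0.05, and the median was 0.04. SHMT2, the mitochondrial enzyme that splits serine into glycine and a one-carbon unit, rose by 0.61 ± 0.069 without serine and 0.52 ± 0.069 with serine, and MTHFD2, which oxidises that unit, by 1.08 ± 0.060 and 0.89 ± 0.060. A failure to pass the threshold does not show equal effects: with a median SE of 0.173 for this contrast, small differences were not detectable.

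Called genes of other stress and signalling lists are given against the 0.384% (more positive) and 0.899% (more negative) of all genes. HSPA1B and HSPA1A, inducible HSP70 chaperones, were called more positive without serine (0.44 ± 0.086, adjusted p = 0.00265, and 0.27 ± 0.068, adjusted p = 0.0303) among 19 heat shock genes (10.5%), whose median was 0.12. They are near-identical copies whose probe sets may share signal, so they count as uncertain, and the HSPA1A call was lost in 10 of 12 leave-one-out fits (adjusted p up to 0.0768) and held only without the second array of compound 16 in either medium. Under compound 16 the media differed at 9 of the 19, all higher without serine, and in DMSO at 0, with 4 past an unadjusted p of 0.05. Of 29 immediate early genes 3 (10.3%) were called more negative without serine, led by the nuclear receptor NR4A1 (-0.90 ± 0.14, adjusted p = 9.83e-05), for which 1 of 7 probe sets had the opposite sign and their mean gave -0.35. PHLDA1 (-0.34 ± 0.087, adjusted p = 0.035) and FOS (-0.77 ± 0.20, adjusted p = 0.0376) followed, FOS with 1 of 4 probe sets of opposite sign. The PHLDA1 call was lost in 8 of 12 leave-one-out fits (up to 0.151) and held only without the first array of compound 16 or the second of DMSO without serine, or the first or second of DMSO with serine. The FOS call was lost in 9 (up to 0.164) and held only without the third array of compound 16 or the second of DMSO without serine, or the first of DMSO with serine. With the mean of its probe sets FOS was -0.26 and not called. Single genes were called in 3 further lists: the chemokine CXCL3 (-0.998 ± 0.25, adjusted p = 0.0303), the endoplasmic reticulum chaperone CALR (-0.65 ± 0.13, adjusted p = 0.00454) and the secreted iron-siderophore carrier LCN2 (0.55 ± 0.098, adjusted p = 0.000725). These were 1 of 22 chemokine and cytokine genes (4.55%), 1 of 22 endoplasmic reticulum genes (4.55%) and 1 of 24 airway secretory genes (4.17%). With the probe set of highest variance CALR was -0.34 and not called (adjusted p = 0.597). The CXCL3 call was lost in 6 leave-one-out fits (up to 0.124): without the first array of any of the 4 groups, the second of DMSO without serine or the third of DMSO with serine. LCN2 had 10.73, 10.75 and 10.77 under compound 16 and 10.17, 10.26 and 10.30 in DMSO without serine, and 10.16, 10.11 and 10.14 under compound 16 and 10.09, 10.21 and 10.24 in DMSO with serine. It was thus highest in the 3 arrays of compound 16 without serine, with no overlap.

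In 8 lists, besides those of cell markers, no gene was called by limma: one-carbon metabolism, p53 targets, NRF2 targets, ribosome biogenesis, lysosome and autophagy, nucleotide synthesis, pyruvate metabolism and glucose sensing. Of their 162 genes, 15 were past an unadjusted p of 0.05 upwards and 5 downwards, against 11.02% of all genes in either direction, and their median difference was 0.03. TXNIP, a glucose-responsive inhibitor of thioredoxin, was in this set. It had group means of 9.33 ± 0.17 (SD, n = 3) under compound 16 and 8.39 ± 0.23 in DMSO without serine, and 8.20 ± 0.10 under compound 16 and 7.50 ± 0.21 in DMSO with serine. Its compound effects differed by 0.23 ± 0.33 (adjusted p = 0.87), and by -0.06 with the mean of its 5 probe sets.

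Further large differences lay outside the lists. FGFBP1, which releases fibroblast growth factors from the matrix, had 5.43, 5.33 and 5.67 under compound 16 and 7.62, 7.50 and 7.66 in DMSO without serine, and 6.74, 6.67 and 5.72 under compound 16 and 7.15, 7.23 and 7.28 in DMSO with serine. Compound 16 lowered it in both media, more without serine (difference -1.28 ± 0.22, adjusted p = 0.00044), and 1 of the compound arrays with serine lay near those without it. TCN1, a cobalamin-binding protein, differed by -1.20 ± 0.23 (adjusted p = 0.00204) and BCL2L15, a BCL2 family member, by -1.06 ± 0.20 (adjusted p = 0.00156). On the positive side, LIN52, a subunit of the DREAM complex that represses cell cycle genes, had a difference of 0.81 ± 0.16 (adjusted p = 0.00222), but its 2 probe sets had opposite signs and their mean gave no call. EIF5A2, a translation factor paralog, differed by 0.74 ± 0.16 (adjusted p = 0.00886), but by 0.33 and with no call with the mean of its probe sets (adjusted p = 0.111). BCL2L15 was -0.59 with that mean (adjusted p = 0.0146) and -0.78 with the probe set of highest variance, where the call was lost (adjusted p = 0.29). The histone genes H3C8 (-0.98 ± 0.21, adjusted p = 0.00593) and H2AC20 (-0.98 ± 0.23, adjusted p = 0.0158) belong to multigene families with near-identical copies and had probe sets of both signs, so they count as uncertain. The H2AC20 call was lost without the second or the third array of compound 16 without serine, or the first of compound 16 or the second of DMSO with serine (up to 0.0817).

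**Figure D4:**
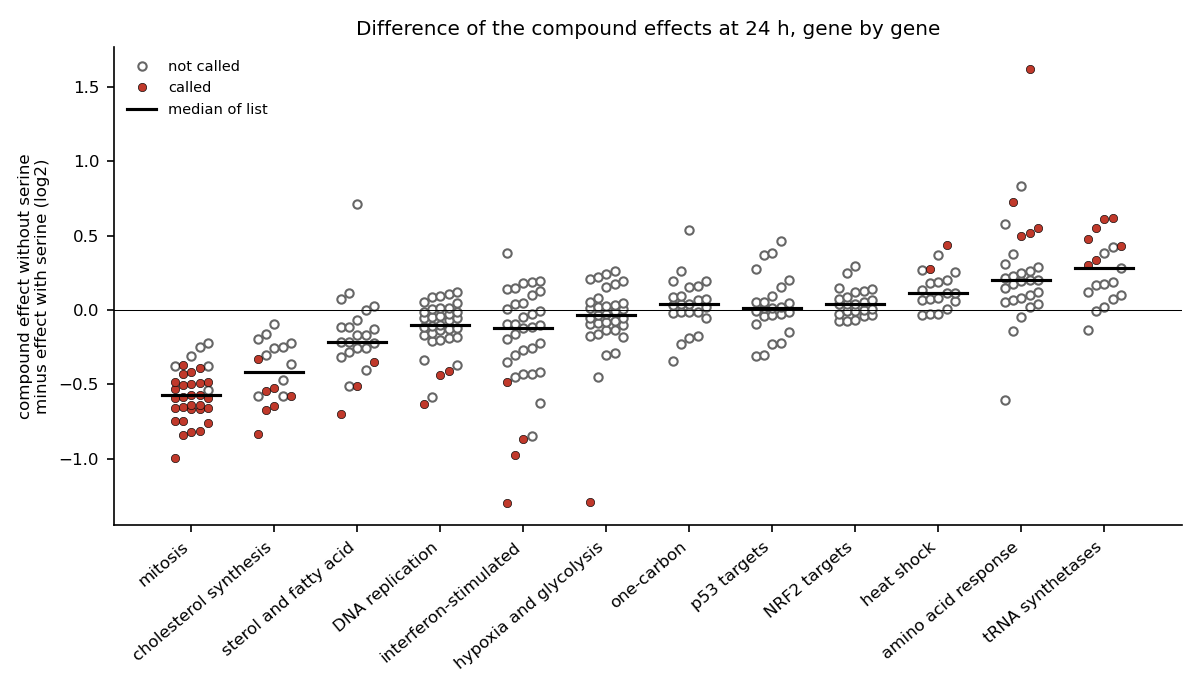
Compound effect without serine minus that with serine at 24 h (log2) for each measured gene of 12 lists, with called genes in red and the median of each list as a black line. The mitosis genes all lie below 0, with 29 of 35 called.

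The dependence at 24 h was set against that at 6 h, which used 12 other arrays. At 6 h 112 genes were more positive without serine (0.614%) and 50 more negative (0.274%), and the total of 162 was 88 with the probe set of highest variance and 240 without dim genes. At 0 h no gene passed limma's adjusted threshold, while 1070 had an unadjusted p below 0.05, and 0 or 1 passed in the alternatives run. At 1.5 h 3 genes were called: DDIT4, GDF15 and TSC22D3, named after their values were seen, and the count was 1 to 13 in the alternatives run. The difference between the 24 h and 6 h values was called for 14 genes in the positive direction (0.0768%) and 35 in the negative (0.192%), or 24 and 21 with arrays centred on medians. The total of 49 was 31 without the third array of compound 16 with serine.

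The mitosis genes had no called member at 6 h, and the list's median was -0.08 at 6 h and -0.57 at 24 h. At 6 h 6 members were past an unadjusted p of 0.05, all more negative without serine, against 1719 of all 18239 genes in either direction. For 10 of the 35 the change from 6 h was itself called, all more negative at 24 h, among them KIF20A, with -0.18 ± 0.093 at 6 h and -0.82 ± 0.093 at 24 h. The amino acid response ran the other way. At 6 h 21 of its 29 genes were called more positive without serine, with a median of 0.81, against 5 and 0.20 at 24 h, and 5 were called as smaller at 24 h: TRIB3, PCK2, SESN2, DDIT4 and CEBPG (the last 3 named after their values were seen). TRIB3, a pseudokinase induced by ATF4, differed by 1.73 ± 0.10 at 6 h and 0.31 ± 0.10 at 24 h. ASNS differed by 0.97 ± 0.092 at 6 h and 0.55 ± 0.092 at 24 h. In the heat shock list 8 of 19 genes were called more negative without serine at 6 h and 2 more positive at 24 h, and the change was called for 7, all upwards. HSPA1B, for example, differed by -0.85 ± 0.086 at 6 h and 0.44 ± 0.086 at 24 h. For cholesterol synthesis 5 of 18 genes were called more negative at 6 h and 7 at 24 h, and the change was called for 1, ACAT2. BCAT1 had values of 0.66 at 0 h, -0.62 at 1.5 h, 0.90 at 6 h and 1.01 at 24 h, with an SE of 0.23 or 0.25, and only the 24 h value was called (adjusted p = 0.0508 at 6 h).

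**Figure D5:**
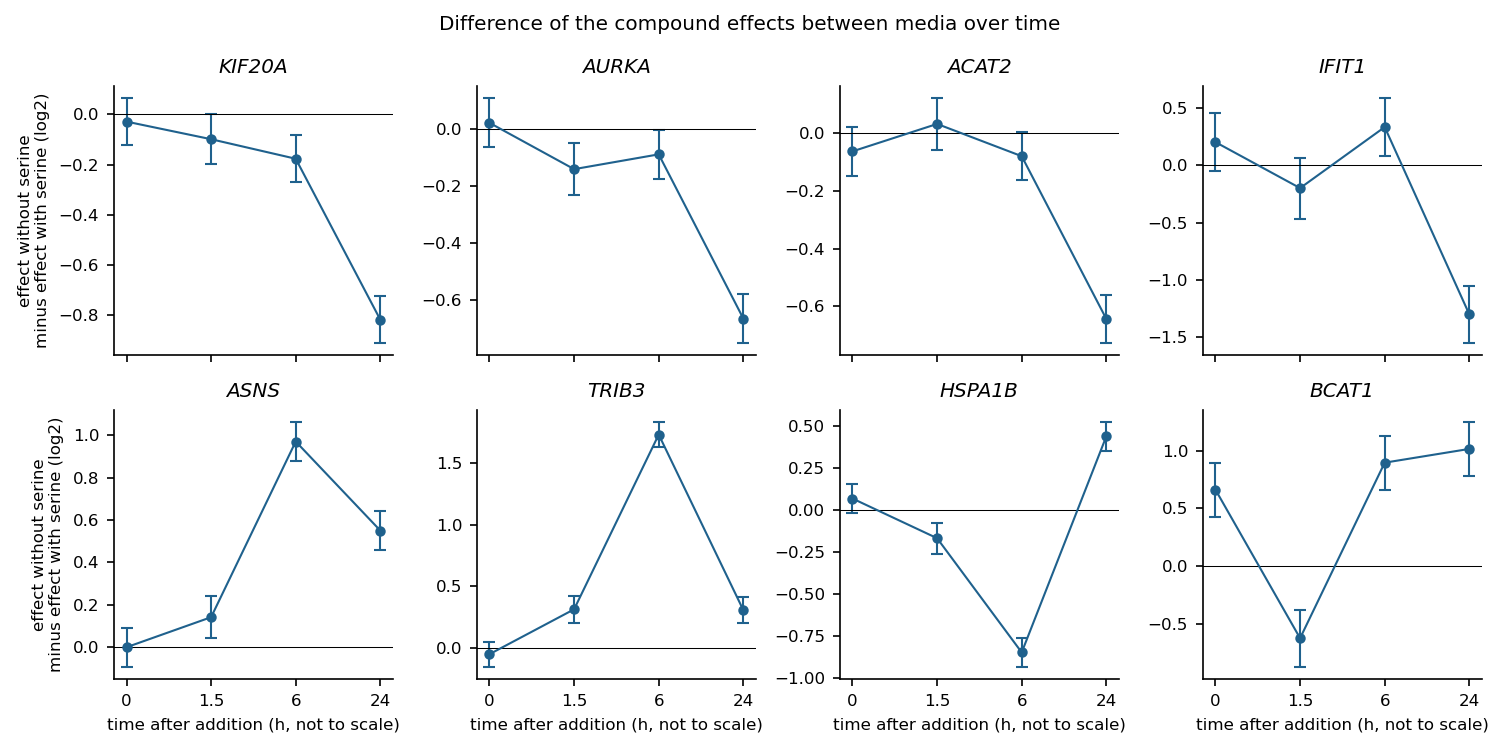
Compound effect without serine minus that with serine (log2, with SE bars) at 0, 1.5, 6 and 24 h for 8 genes, times spaced evenly and not to scale. KIF20A, AURKA, ACAT2 and IFIT1 were most negative at 24 h, ASNS and TRIB3 were highest at 6 h, and HSPA1B was negative at 6 h and positive at 24 h.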

How the data were processed

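The values deposited are log2 signals per probe set on 50 Affymetrix HG-U219 arrays. The signals came from RMA, per the submitters' processing notes, which also list limma, with no version given in the sources used here. RMA equalises arrays, so a shift shared by all genes is removed, and it compresses changes of dim probe sets. Log2 values were used as the authors deposited them, with no filter.

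Of 49386 probe sets, 45253 name 1 gene symbol in the platform annotation, 1327 several, 2713 none and 93 are controls. Those with 1 symbol were kept, and for the 11822 of 18239 genes with several probe sets the one with the highest mean over all arrays was used. Contrasts were tested with limma 3.58.1 in R 4.3.3, on 17 group means over the 50 arrays, by eBayes (33 residual and 3.70 prior degrees of freedom), with Benjamini-Hochberg adjustment over all genes and calls at an adjusted p under 0.05. Errors written after ± are SEs of contrasts unless marked SD. The median SE was 0.122 for an effect in 1 medium, 0.173 for the difference between media and 0.245 for 24 h minus 6 h, and the number of arrays limits this precision. The fit was tested on simulated data.

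The 27 gene lists, the named genes and the tests were chosen with earlier results of these data known. Always named were ASNS, TXNIP, MTHFD2, SHMT2, PSPH, PSAT1, PHGDH, PKM, IFIT1, ALDOC, KIF20A and BCAT1. To these came the 15 called genes with the largest difference each way, up to 4 members with the smallest p of each list with a called member, and up to 5 genes each way called for 24 h minus 6 h. Some of them are given in counts alone, and some results are not reported here. No array values were identical between samples, and 0 columns were without a sample. Promoter motifs were searched in RefSeq sequence of GRCh38.p14, 250 bases before the start, for 14492 of the 18239 genes. Alternatives were a filter on dim genes (40th percentile), quantile normalization, centring on medians, the 12 arrays alone, array weights, a trended robust prior, other choices of probe set and leaving out each array.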

Additional observations from a re-analysis of the deposited data

Results flagged for a closer look

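For 15 of the named genes reported here the serine dependence of the compound effect differed between 24 h and 6 h by the limma test of that difference itself (adjusted p under 0.05), given here as the 24 h value minus the 6 h value on the log2 scale. The 2 times share no arrays. Some genes were named because this test called them, so the count of 15 is partly set by the naming rule. Of all 18239 genes tested, 49 were called.

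Of 10 genes with a more negative value at 24 h, 3 are interferon-stimulated: IFIT1 (-1.63), IFITM1 (-1.31) and OAS1 (-0.92). The IFIT1 call was lost without the third array of compound 16 or the second of DMSO in medium lacking serine, or the third of compound 16 or the second of DMSO with serine (adjusted p up to 0.0713). The IFITM1 call was lost in 8 of 12 leave-one-out fits (up to 0.074) and held only without the first array of compound 16 in either medium, the third of DMSO without serine or the first with serine. That of OAS1 held without each of the 12 arrays of 24 h. Mitosis genes were KIF20A (-0.64), AURKA (-0.57) and KIF11 (-0.56), and the cholesterol enzyme ACAT2 moved by -0.56. The calls of AURKA and ACAT2 were lost without the third DMSO array lacking serine (adjusted p = 0.0503) and without the first array of compound 16 with serine (adjusted p = 0.0502). Those of KIF20A, KIF11, AURKA and ACAT2 were all lost with the probe set of highest variance and in the fit of the 24 arrays alone. Centring on medians also removed those of KIF11, AURKA and ACAT2. Over all alternatives KIF11 was as small as -0.24 (adjusted p up to 0.797). TRIB3 (-1.42), PCK2, the mitochondrial phosphoenolpyruvate carboxykinase (-1.26), and IGFBP1, an insulin-like growth factor binding protein (-1.23), had positive values at 6 h that were smaller or, for IGFBP1, negative at 24 h. The calls of these 3 held without each of the 12 arrays of 24 h. That of PCK2 was lost with the probe set of highest variance (adjusted p up to 0.0847 over all alternatives).

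More positive values at 24 h were found for HSP70 family chaperones, HSPA1B (1.28), HSPA2 (0.98) and HSPA1A (0.81), which kept their calls in all 20 alternatives. HSPA1B and HSPA1A are near-identical copies whose probe sets may share signal, so they count as uncertain here too. More positive values were also found for INHA, the inhibin alpha subunit (1.17), and LIN52 (0.985). The INHA and LIN52 calls were lost in 8 of 12 leave-one-out fits each (up to 0.0957 and 0.0801). That of INHA held only without the first array of any group except compound 16 with serine, where it held without the second, and that of LIN52 only without the second array of compound 16 or the third of DMSO lacking serine, or the first of compound 16 or the second of DMSO with serine.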

How the results depend on the processing

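The 234 genes called for serine dependence became 67 with the 12 arrays alone and 132 with the highest-variance probe set, and 158 to 214 with 1 array left out. For compound 16 without serine (1287 genes) these values were 761, 844 and 976 to 1303. With serine (249) they were 75, 132 and 127 to 249, with 389 once dim genes were left out. The low ends were 127 without the second array of compound 16 and 139 without the third of DMSO, both with serine. Media under compound 16 (800) gave 360, 470 and 557 to 796. Media in DMSO (29) gave 1, 16 and 9 to 39, with 53 without dim genes, 51 with a trended robust prior and 56 with mean probe sets. For 24 h minus 6 h (49) the values were 20, 21 and 31 to 49, with 105, 105 and 96 under those last 3 settings. The fit of the 12 arrays alone (24 arrays for 24 h minus 6 h) has fewer degrees of freedom. The cause of the moves under any of these alternatives was not tested. In the list counts, whose alternatives were chosen after seeing the data, the 12 arrays alone gave 20 mitosis genes (29), 2 of cholesterol synthesis (7), 1 of interferon (4), 1 of the amino acid response (5) and 3 tRNA synthetases (7).

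Of 62 named genes called at 24 h, 10 kept the call in all 20 alternatives: ACAT2, AURKA, BEX2, EBP, KIF20A, LCN2, NIBAN1, NR4A1, OAS1 and YARS1. The other 52 lost it in at least 1 alternative, 26 of them when a single array was left out. With the highest-variance probe set B3GNT3 was 0.11 and H2AC20 0.19, against -0.93 and -0.98, and with mean probe sets TXNIP was -0.058. Centring on medians shifted the median serine dependence of all genes by 0.0567. No paired analysis was possible because the numbers in the titles run through the series and no 2 groups share them.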
